A study of Homo sapiens with 18 samples.

Results

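TXNIP, its close relative ARRDC4 and 8 genes of glucose uptake and glycolysis (SLC2A1, SLC2A3, HK2, ALDOA, ALDOC, PGK1, ENO2 and LDHA) were followed across all 18 RNA-seq libraries of the series. They are 10 of the 26249 genes in the deposited table. The set was chosen by gene name with earlier results of these data known, and TXNIP and ALDOC were selected on their FPKM differences with time on the inhibitor in PATU-8902 cells. Inhibitor comparisons of TXNIP and ALDOC in PATU-8902 are therefore given as a description, with no p-value. Their calls there are counted only where the processing is varied, and nothing is read from them. The other genes of the set that passed the filter below were tested in PATU-8902. A mean of at least 1 FPKM (fragments per kilobase of transcript, scaled to library size and here levelled on spike-in RNA) over the 18 libraries was required for a test. Of the 10 genes 9 passed this filter, among 11477 genes in all, and SLC2A3 did not. ARRDC4 passed it only through its level in PATU-8988T and ALDOC only through its level in PATU-8902, so both had to differ between the lines.

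The cells were PATU-8902 and PATU-8988T, established human lines labelled as pancreatic ductal adenocarcinoma. Each line received 2.5 µM of the DCLK1 kinase inhibitor DCLK1-IN-1 (the inhibitor) for 6 h or 24 h, or the vehicle DMSO for 24 h. Each of the 6 groups held 3 libraries of polyadenylated RNA, which the series record calls biological triplicates. The 6 h libraries were compared with DMSO at 24 h, so time in culture and inhibitor cannot be told apart at 6 h. Each line is 1 established culture, so the lines are compared as 2 cell populations and not as samples of 2 tumour kinds.

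Cells take up glucose through the transporters GLUT1 (gene SLC2A1) and GLUT3 (SLC2A3), and hexokinases such as HK2 trap it as glucose 6-phosphate. Aldolases (ALDOA, ALDOC), phosphoglycerate kinase (PGK1) and enolases (ENO2) carry it on through glycolysis, and lactate dehydrogenase A (LDHA) turns pyruvate into lactate. TXNIP and ARRDC4 are alpha-arrestins that curb glucose uptake, and their transcription is a known readout of glucose 6-phosphate through the paired factors MondoA (MLXIP) and MLX, which bind carbohydrate response elements. TXNIP also binds and inhibits thioredoxin.

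The promoter of TXNIP is shown because it holds the class of element that MondoA and MLX bind, that of ARRDC4 as its paralogue's, and that of ALDOC because ALDOC was chosen for its difference with time on the inhibitor. Of the 10 genes 9 matched the RefSeq promoter table (build GRCh38.p14), with 14 windows that each run from 250 bases before to 50 bases after a transcription start; SLC2A3 had no entry. The sequences read 5′ to 3′ on the strand of the gene. TXNIP lies at chr1:145996530-145996829 on the minus strand, ARRDC4 at chr15:97960453-97960752 on the plus strand, and ALDOC at chr17:28576846-28577145 on the minus strand. Capitals mark a carbohydrate response element in TXNIP, an E-box in ARRDC4, and an E-box followed by a hypoxia response core in ALDOC.
TXNIP: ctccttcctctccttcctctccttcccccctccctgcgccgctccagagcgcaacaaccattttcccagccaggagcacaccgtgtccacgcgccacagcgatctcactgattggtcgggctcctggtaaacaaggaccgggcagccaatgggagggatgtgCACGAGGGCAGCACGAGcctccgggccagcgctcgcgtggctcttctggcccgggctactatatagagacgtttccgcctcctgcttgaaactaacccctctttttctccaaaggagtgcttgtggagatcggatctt
ARRDC4: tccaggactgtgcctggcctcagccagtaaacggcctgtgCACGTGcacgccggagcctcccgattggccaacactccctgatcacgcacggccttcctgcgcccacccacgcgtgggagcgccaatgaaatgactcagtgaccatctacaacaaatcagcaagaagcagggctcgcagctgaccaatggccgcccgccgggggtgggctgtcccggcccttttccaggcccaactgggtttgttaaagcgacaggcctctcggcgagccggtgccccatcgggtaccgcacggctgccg
ALDOC: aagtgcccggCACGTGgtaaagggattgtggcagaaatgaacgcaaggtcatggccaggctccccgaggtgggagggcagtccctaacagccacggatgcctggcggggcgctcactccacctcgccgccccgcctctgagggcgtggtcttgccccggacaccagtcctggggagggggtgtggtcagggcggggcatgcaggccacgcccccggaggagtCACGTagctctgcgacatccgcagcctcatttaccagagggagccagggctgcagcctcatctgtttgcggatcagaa

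The carbohydrate response element was searched on both strands as a pair of CACGNG copies in the same direction, with 5 bases between them. Pairs with an inverted second copy were not searched, so a window without a match may still hold one. The searched pair was found at bases 163 to 179 of the TXNIP window, beginning 88 bases before the start site, and in none of the other 13 windows of the set. It was held by 20 of all 35116 RefSeq windows (0.0570%). The E-box CACGTG was found in 5 of the 14 windows (ALDOA, ALDOC, ARRDC4, HK2 and LDHA), against 7.26% of all windows. The hypoxia response core ACGTG, which every E-box also contains, was found in 11 of the 14 windows, against 21.4% of all windows. The CCAAT box was found in 6 of the 14 windows, against 34.6% of all windows. The sterol regulatory element was in none of the 14, against 0.154% of all windows. A match describes the letters of the window and was not tested as a binding site.

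Before the values, 1 feature of the libraries matters. The median FPKM of the tested genes ran from 6.12 to 17.4, and the lowest value belonged to PATU-8988T DMSO replicate 1, where the other 2 libraries of that group had 12.1 and 10.2. Many results are therefore given on 2 scales: log2(FPKM + 1) as deposited, and the same after each library was shifted to a common median (median-centred). Other log2 differences are given on 1 scale, which is the centred one wherever none is named, and they may differ as deposited. The Pearson correlation of 2 libraries of a group ranged from 0.957 to 0.981. Each library had a floor, taken as its most common value, of 0.0795 to 0.118 FPKM, and some genes read slightly below it. Of 6 markers of simple epithelium, 6 averaged over 1 FPKM in PATU-8902 and 3 did in PATU-8988T (KRT8, KRT18 and EPCAM), while KRT19, KRT7 and CDH1 had group means of 0.0817 to 0.198 FPKM there. Of 22 markers of fibroblasts, leukocytes, endothelium, acinar and islet cells, only CD68 averaged over 1 FPKM, in both lines.

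The genes of the set spanned more than 3 orders of magnitude. LDHA was the most abundant, with a mean of 1076 FPKM over the 18 libraries and rank 49 among the 11477 tested genes. ALDOA followed with 334 FPKM, PGK1 with 154 and SLC2A1 with 92.6. TXNIP averaged 18.5 FPKM, HK2 11.8 and ENO2 7.69. ALDOC averaged 3.13 FPKM, ARRDC4 1.14 and SLC2A3 0.293. FPKM is per length, so these levels can be set side by side. Reads from processed pseudogenes of LDHA, ALDOA and PGK1, or from SLC2A14, a near-identical copy of SLC2A3, may have been assigned to either locus; SLC2A14 itself averaged 0.0858 to 0.120 FPKM in the 6 groups.

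**Figure D1:**
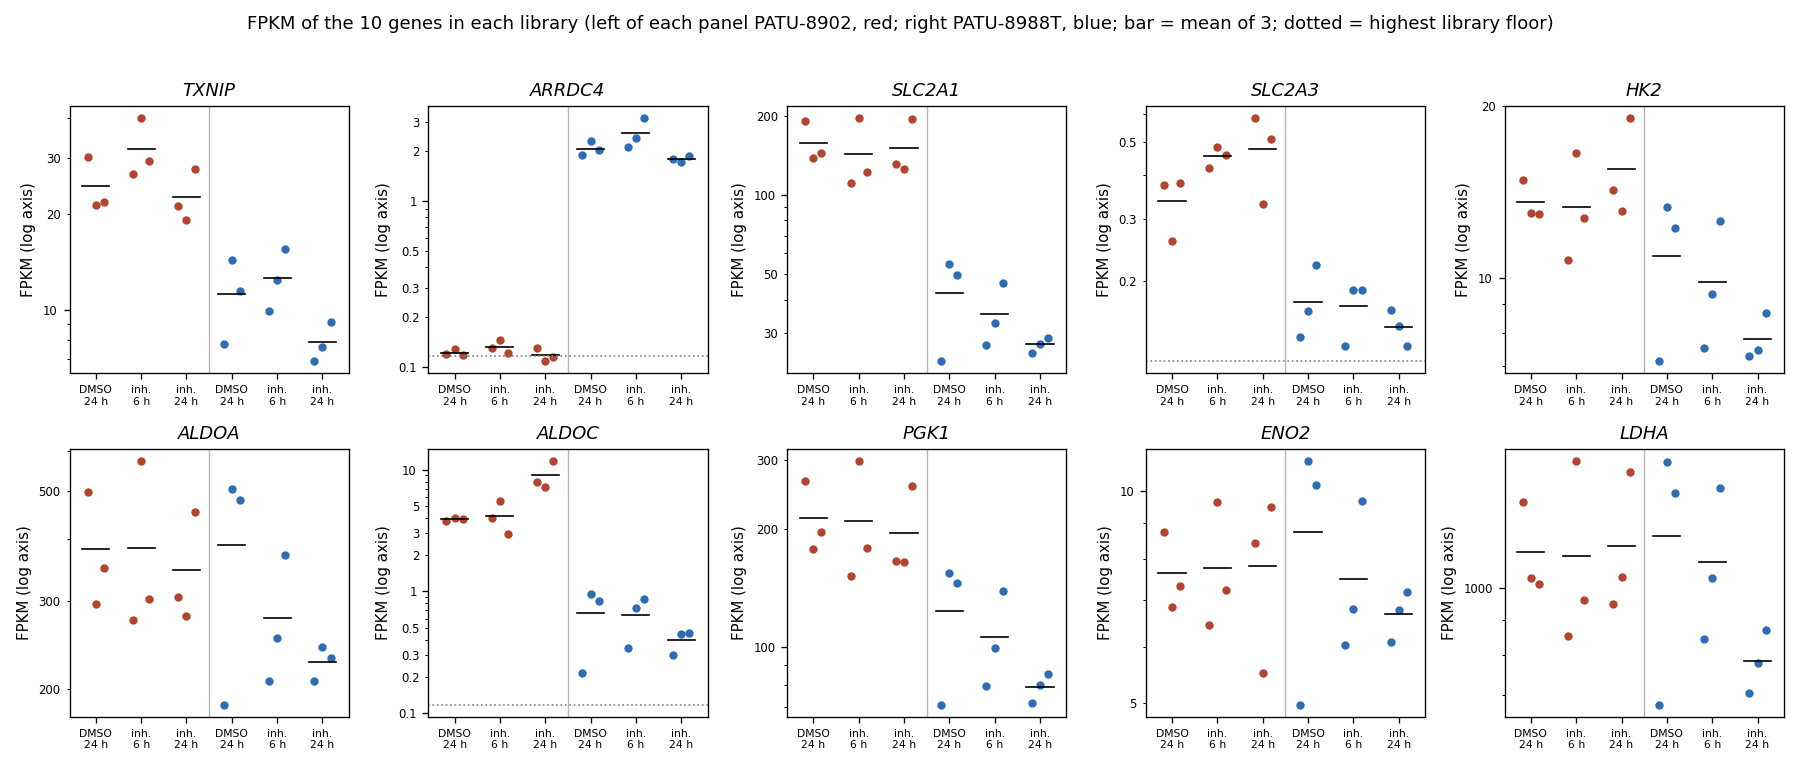
FPKM on a log axis of each of the 10 genes in every library, with PATU-8902 on the left and PATU-8988T on the right of each panel and DMSO, 6 h and 24 h of inhibitor in order; points are libraries and bars are means of 3. SLC2A1 and ALDOC lie higher in all PATU-8902 libraries than in any PATU-8988T library, ARRDC4 lies at 0.109 to 0.146 FPKM in PATU-8902 against 1.73 to 3.19 FPKM in PATU-8988T, and the spread of LDHA within PATU-8988T DMSO (679 to 1518 FPKM) is wide.

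The 2 lines differed in their glucose-handling genes before any inhibitor was given. TXNIP, SLC2A1, ALDOC and PGK1 were higher in PATU-8902 on both scales. ARRDC4, ENO2 and LDHA were lower on both, but ENO2 and LDHA stood at only -0.11 and -0.01 on the log2 scale as deposited and turned without PATU-8988T DMSO replicate 2 (0.0719 and 0.21) or 3, and LDHA also without PATU-8902 DMSO replicate 2 or 3. ALDOC and ARRDC4 are left out of the counts that follow, since the filter fixed that they differ. Of the other 7 tested genes, 3 passed the threshold as deposited (TXNIP, SLC2A1 and PGK1; limma, Benjamini-Hochberg adjusted p below 0.05 over the 11477 genes), against 54.2% of all tested genes. All 3 were higher, against 41.8% of all genes called higher and 12.4% called lower. After centring 7 of 7 passed, against 72.2% of all tested genes, with 3 higher, against 34.4%, and 4 lower, against 37.8%. In a fit of the compared groups only, PGK1 no longer passed as deposited, and PGK1, HK2 and ALDOA no longer passed after centring. Libraries of the 2 lines did not overlap for 3 of the 7 genes as deposited, against 57.4% of all genes, and for 5 after centring, against 68.7%, where ALDOA and PGK1 overlapped. Between these lines most genes differ after centring, and the counts for the set are to be read against those shares. The median of the 7 log2 differences was 0.33 as deposited, where all genes had 0.45, and -0.17 after centring, where all genes had -0.05. Fewer cells and less RNA per cell cannot be told apart in bulk RNA, and the deposited values keep such differences between libraries while the centred ones remove them.

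TXNIP read 30.2, 21.4 and 21.8 FPKM in PATU-8902 DMSO libraries, against 7.83, 14.3 and 11.5 FPKM in PATU-8988T DMSO libraries. All 3 PATU-8902 values lay above all 3 PATU-8988T values. The log2 difference was 1.08 ± 0.24 (SE) as deposited (limma adjusted p = 9.80e-04) and 0.58 ± 0.07 after centring (adjusted p = 7.14e-07). Its relative ARRDC4 went the other way. ARRDC4 read 0.120, 0.129 and 0.119 FPKM in PATU-8902 DMSO libraries, against 1.91, 2.30 and 2.03 FPKM in PATU-8988T DMSO libraries. In all 9 PATU-8902 libraries, with or without inhibitor, ARRDC4 stayed between 1.13 and 1.24 times the floor of the library, while in PATU-8988T it was 18.6 to 28.9 times the floor. The log2 difference of ARRDC4 was -1.45 ± 0.13 as deposited and -1.95 ± 0.20 after centring, and it was -3.29 and -3.83 with a pseudocount of 0.1. No p is given, since ARRDC4 passed the filter through PATU-8988T alone.

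On log2(FPKM + 1), the glucose transporter GLUT1 had the largest positive difference of the 9 tested genes on both scales. With a pseudocount of 0.1 that of ALDOC was larger (2.57 for ALDOC against 1.97 for SLC2A1 as deposited, and 2.02 against 1.42 after centring). SLC2A1 read 191, 138 and 144 FPKM in PATU-8902 DMSO libraries, against 23.3, 54.6 and 49.5 FPKM in PATU-8988T DMSO libraries. The groups did not overlap, and the log2 difference was 1.94 ± 0.31 as deposited (limma adjusted p = 3.82e-05) and 1.44 ± 0.10 after centring (adjusted p = 1.60e-09). GLUT3 was barely present. SLC2A3 read 0.377, 0.260 and 0.380 FPKM in PATU-8902 DMSO libraries, against 0.138, 0.164 and 0.221 FPKM in PATU-8988T DMSO libraries, and made up 0.216% ± 0.041 (SD, n = 3) of the summed SLC2A1 and SLC2A3 FPKM in PATU-8902 and 0.444% ± 0.144 in PATU-8988T. In a fit with no filter on low values, over 26249 genes, SLC2A3 differed by 0.19 ± 0.05 as deposited (adjusted p = 0.0129) and by -0.31 ± 0.23 after centring (adjusted p = 0.210), so its direction turned with the scale.

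Among the glycolytic enzymes, ALDOC lay on opposite sides of 1 FPKM in the lines. ALDOC read 3.82, 4.02 and 3.93 FPKM in PATU-8902 DMSO libraries, against 0.214, 0.959 and 0.842 FPKM in PATU-8988T DMSO libraries. The log2 difference was 1.59 ± 0.22 as deposited and 1.09 ± 0.13 after centring, given with no p because ALDOC passed the filter through PATU-8902 alone. PGK1 averaged 213 ± 46.0 FPKM in PATU-8902 DMSO and 124 ± 45.5 FPKM in PATU-8988T DMSO (SD, n = 3 each), with a log2 difference of 0.84 ± 0.33 as deposited (limma adjusted p = 0.0371) and 0.34 ± 0.11 after centring (adjusted p = 0.0134). The PGK1 call was lost without PATU-8988T DMSO replicate 1 (as deposited 0.49, adjusted p = 0.190; centred 0.24, adjusted p = 0.0656) and without PATU-8902 DMSO replicate 1 (as deposited 0.67, adjusted p = 0.146; centred 0.25, adjusted p = 0.0762). As deposited it was lost too without PATU-8902 DMSO replicate 3 (0.89, adjusted p = 0.0612) and with no filter on low values (adjusted p = 0.0711). In a fit of the compared groups only, the adjusted p of PGK1 was 0.103 as deposited and 0.0649 after centring.

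ENO2 and LDHA passed the threshold after centring alone. ENO2, the enolase best known from neurons, averaged 7.64 ± 0.988 FPKM in PATU-8902 DMSO and 8.74 ± 3.29 FPKM in PATU-8988T DMSO, with a centred log2 difference of -0.61 ± 0.10 (limma adjusted p = 4.58e-05) and one of -0.11 ± 0.26 as deposited (adjusted p = 0.732). LDHA averaged 1125 ± 178 FPKM in PATU-8902 DMSO and 1190 ± 448 FPKM in PATU-8988T DMSO, with a centred difference of -0.51 ± 0.10 (adjusted p = 2.71e-04) and one of -0.01 ± 0.32 as deposited (adjusted p = 0.990). HK2 and ALDOA changed sign with the scale. HK2 differed by 0.33 ± 0.24 as deposited (adjusted p = 0.243) and by -0.17 ± 0.05 after centring (adjusted p = 0.00712). That HK2 call was lost with no filter on low values (adjusted p = 0.0669) and in a fit of the compared groups only (adjusted p = 0.116). ALDOA differed by 0.07 ± 0.37 as deposited (adjusted p = 0.894) and by -0.43 ± 0.17 after centring (adjusted p = 0.0356), and the centred call was lost without PATU-8988T DMSO replicate 2 (-0.36, adjusted p = 0.115) or 3 (-0.29, adjusted p = 0.168) and without PATU-8902 DMSO replicate 2 (-0.30, adjusted p = 0.166) or 3 (-0.43, adjusted p = 0.0703). The ALDOA call was lost too with the replicate number as a block (adjusted p = 0.0529) and in the fit of the compared groups only (adjusted p = 0.116).

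Shares of isozymes within a library do not depend on how libraries are scaled. They describe the mRNA of each form, and neither protein nor activity was measured. HK2 made up 26.4%, 29.0% and 28.2% of the summed HK1 and HK2 FPKM in PATU-8902 DMSO libraries, against 16.2%, 12.9% and 12.6% in PATU-8988T DMSO libraries. The means were 27.9% ± 1.35 and 13.9% ± 1.98 (SD, n = 3 each), and the groups did not overlap (2-sided exact permutation p = 0.1, the smallest that 3 libraries against 3 can give; 0.5 after adjustment over the 35 share tests). HKDC1, a further hexokinase gene, lies outside the summed HK1 and HK2 FPKM. It averaged 6.97 FPKM over all PATU-8902 libraries and 0.301 FPKM over all PATU-8988T libraries. ALDOC made up 1.07% ± 0.289 of the summed ALDOA and ALDOC FPKM in PATU-8902 DMSO and 0.160% ± 0.040 in PATU-8988T DMSO, again without overlap. Of the summed LDHA and LDHB FPKM nearly all was LDHA: its share was 99.99% in each of the 6 groups, and LDHB averaged 0.0854 to 0.146 FPKM, near the floor.

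**Figure D2:**
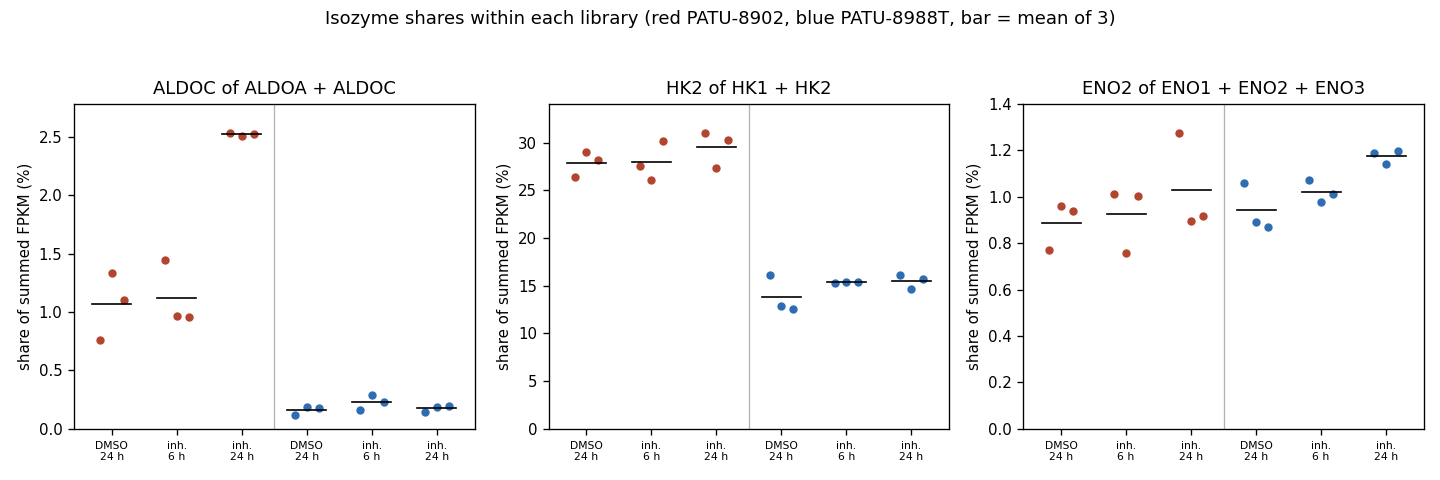
Share in percent of ALDOC among ALDOA and ALDOC, HK2 among HK1 and HK2, and ENO2 among enolases, in every library, with PATU-8902 on the left and PATU-8988T on the right of each panel; points are libraries and bars are means of 3. HK2 holds 26.1% to 31.0% in PATU-8902 against 12.6% to 16.2% in PATU-8988T, and the 3 PATU-8902 libraries at 24 h of inhibitor have ALDOC shares of 2.51% to 2.53%.

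With the inhibitor, TXNIP in PATU-8902 was higher at 6 h and back near the DMSO level by 24 h. TXNIP read 30.2, 21.4 and 21.8 FPKM in DMSO, 26.8, 40.1 and 29.3 FPKM at 6 h and 21.2, 19.1 and 27.6 FPKM at 24 h. On this scale the groups overlapped. After centring, TXNIP stood at 4.50, 4.24 and 4.29 in DMSO, at 4.78, 4.75 and 4.76 at 6 h and at 4.23, 4.13 and 4.17 at 24 h (log2 levels). The 6 h libraries lay close together and above all others of the line, and the 24 h libraries lay below all DMSO libraries. The centred log2 difference was 0.42 ± 0.07 (SE) at 6 h against DMSO, -0.59 ± 0.07 at 24 h against 6 h and -0.17 ± 0.07 at 24 h against DMSO. As deposited the differences were 0.37 ± 0.24, -0.48 ± 0.24 and -0.11 ± 0.24. These contrasts share the libraries through which TXNIP was chosen and carry no p here.

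In PATU-8988T, whose libraries were not those TXNIP was selected on, TXNIP had the same order of groups and smaller differences, and none passed the threshold. TXNIP read 7.83, 14.3 and 11.5 FPKM in DMSO, 9.93, 12.4 and 15.5 FPKM at 6 h and 6.88, 7.62 and 9.16 FPKM at 24 h. After centring it stood at 3.85, 3.76 and 3.68 in DMSO, at 3.97, 3.98 and 3.92 at 6 h and at 3.65, 3.70 and 3.71 at 24 h. All 3 libraries at 6 h lay above all DMSO libraries, and all 3 at 24 h lay below all at 6 h. Groups without overlap, in either direction, were common there: 19.7% and 21.1% of all genes had them. The centred log2 difference of TXNIP was 0.19 ± 0.07 at 6 h against DMSO (limma adjusted p = 0.0986) and -0.27 ± 0.07 at 24 h against 6 h (adjusted p = 0.855). The 24 h against DMSO difference was -0.08 ± 0.07 (adjusted p = 0.443), with overlapping groups. As deposited the 24 h libraries also lay below those at 6 h, by -0.60 ± 0.24 (limma adjusted p = 0.442), where 9.16% of all genes did not overlap. The 6 h difference of PATU-8902 exceeded that of PATU-8988T by 0.23 ± 0.09 after centring, a description with no test, since it holds the PATU-8902 libraries TXNIP was chosen on.

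**Figure D3:**
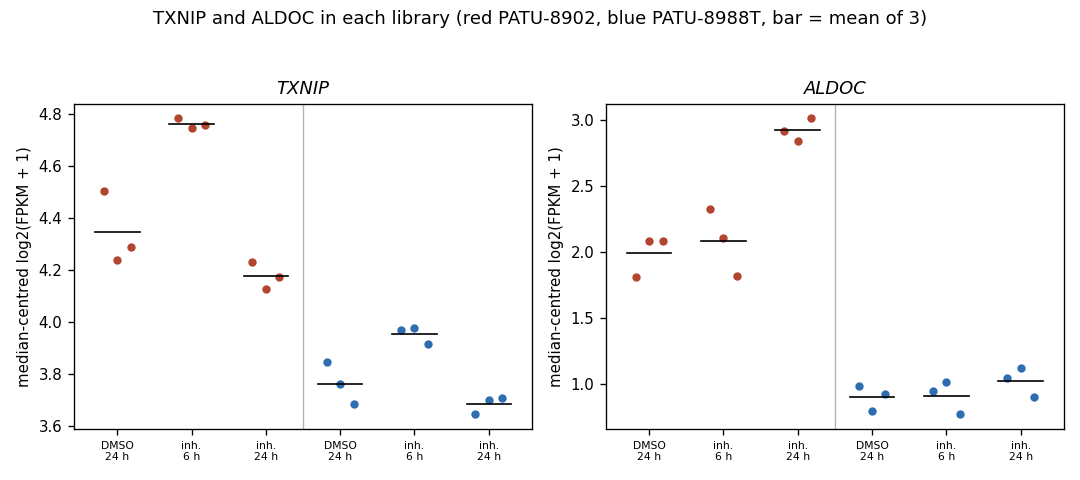
Median-centred log2(FPKM + 1) of TXNIP and ALDOC in every library, with PATU-8902 on the left and PATU-8988T on the right of each panel; points are libraries and bars are means of 3. TXNIP is highest at 6 h in both lines (4.75 to 4.78 in PATU-8902 and 3.92 to 3.98 in PATU-8988T), and ALDOC stands at 2.84 to 3.01 in PATU-8902 at 24 h, above the other groups.

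ARRDC4, the paralogue of TXNIP, showed no called change. In PATU-8988T ARRDC4 read 1.91, 2.30 and 2.03 FPKM in DMSO, 2.11, 2.42 and 3.19 FPKM at 6 h and 1.79, 1.73 and 1.87 FPKM at 24 h. As deposited the 24 h libraries lay below those at 6 h, by -0.34 ± 0.13 (limma adjusted p = 0.442), and below those in DMSO, by -0.14 ± 0.13 (adjusted p = 0.430). Of all genes, 9.16% and 1.32% had groups without overlap in these comparisons. After centring the groups of ARRDC4 overlapped, with differences of -0.01 ± 0.20 (adjusted p = 0.997) and 0.21 ± 0.20 (adjusted p = 0.499). In PATU-8902 ARRDC4 averaged 0.123 FPKM in DMSO, 0.133 FPKM at 6 h and 0.118 FPKM at 24 h, all near the floor. A gene at the floor takes its centred value mostly from the shift of the library, and the centred differences of ARRDC4 in PATU-8902 are not read further.

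ALDOC in PATU-8902 was about the same at 6 h as in DMSO and higher at 24 h. ALDOC read 3.82, 4.02 and 3.93 FPKM in DMSO, 4.05, 5.58 and 2.94 FPKM at 6 h and 7.94, 7.22 and 11.8 FPKM at 24 h. All 3 libraries at 24 h lay above the other 6 of the line on both scales. The log2 difference at 24 h against DMSO was 0.99 ± 0.22 as deposited and 0.93 ± 0.13 after centring, which is 1.90-fold on the centred scale. At 24 h against 6 h it was 0.95 ± 0.22 as deposited and 0.84 ± 0.13 after centring, and at 6 h against DMSO it was 0.05 ± 0.22 and 0.09 ± 0.13. These values stand without a p for the reason given for TXNIP.

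Relative to ALDOA, ALDOC stood higher at 24 h in PATU-8902. The share uses the FPKM of ALDOC in the libraries it was chosen on, so it is a description and no separate support. ALDOC made up 0.762%, 1.34% and 1.11% of the summed ALDOA and ALDOC FPKM in PATU-8902 DMSO libraries, 1.45%, 0.964% and 0.960% at 6 h and 2.53%, 2.51% and 2.53% at 24 h. The 24 h shares lay close together and above those of the other 6 libraries. ALDOA, the more abundant of the pair, averaged 382 ± 104 FPKM in DMSO, 384 ± 165 FPKM at 6 h and 346 ± 93.3 FPKM at 24 h (SD, n = 3 each). So even at 24 h ALDOC was a small part of the summed ALDOA and ALDOC mRNA in PATU-8902.

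In PATU-8988T, ALDOC lay below 1 FPKM in every library. It read 0.214, 0.959 and 0.842 FPKM in DMSO, 0.343, 0.726 and 0.867 FPKM at 6 h and 0.303, 0.446 and 0.456 FPKM at 24 h. The groups overlapped, and at 24 h against DMSO the log2 difference was -0.23 ± 0.22 as deposited (limma adjusted p = 0.449) and 0.12 ± 0.13 after centring (adjusted p = 0.538). Its share of the summed ALDOA and ALDOC FPKM was 0.160% ± 0.040 in DMSO, 0.228% ± 0.061 at 6 h and 0.175% ± 0.027 at 24 h (SD, n = 3 each), also overlapping. The difference between the lines of the 24 h effect on ALDOC was 0.81 ± 0.18 after centring and 1.22 ± 0.31 as deposited. It shares its PATU-8902 libraries with the choice of ALDOC and is given with no test.

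The 7 tested genes other than TXNIP and ALDOC gave no call with the inhibitor in either line and on either scale (limma). In PATU-8902 the count was 0 of these 7 in each of the 3 comparisons. After centring the share of all genes called was 0.444% at 24 h against DMSO, 0.113% at 6 h against DMSO and 0.244% at 24 h against 6 h, and as deposited it was 0.113%, 0.00871% and 0.0% in the same order. At an unadjusted p below 0.05 the counts were 0 of 7 in all 3 comparisons on both scales, against 7.72%, 2.35% and 8.55% of all genes after centring and 1.46%, 0.688% and 1.72% as deposited. Groups did not overlap for 1, 0 and 1 of the 7 after centring (HK2 both times), against 13.1%, 8.03% and 14.3% of all genes, and for 0 in each as deposited, against 6.49%, 2.04% and 3.98%.

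PATU-8988T had 0 calls among the 9 genes in all 3 comparisons on both scales (limma). The share of all genes called was 0.0% at 24 h against DMSO and at 24 h against 6 h on both scales. At 6 h against DMSO it was 0.0% as deposited and 0.0784% after centring. At an unadjusted p below 0.05 the centred counts were 0 at 24 h against DMSO, 2 at 6 h against DMSO and 1 at 24 h against 6 h, against 16.8%, 29.5% and 4.74% of all genes. As deposited they were 0, 0 and 2, against 5.99%, 2.50% and 5.79%. Groups did not overlap for 0, 2 and 4 of the 9 after centring in the same order, against 7.56%, 19.7% and 21.1% of all genes, and for 1, 0 and 2 as deposited, against 1.32%, 2.05% and 9.16%. At 6 h the 2 of 9 genes are close to the share of all genes by either rule. Over the 7 genes other than TXNIP and ALDOC, the line difference gave 0 calls for the 24 h effect, against 0.227% of all genes after centring and 0.00871% as deposited, and 0 for the 6 h effect, against 0.0% on both scales. At an unadjusted p below 0.05 these counts were also 0 on both scales, against 4.80% of all genes at 24 h and 12.1% at 6 h after centring, and 2.45% and 0.863% as deposited. The median of the 9 centred log2 differences in PATU-8988T was -0.08 at 24 h against DMSO, where all genes had 0.00, and -0.11 at 6 h against DMSO, where all genes had -0.03.

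**Figure D4:**
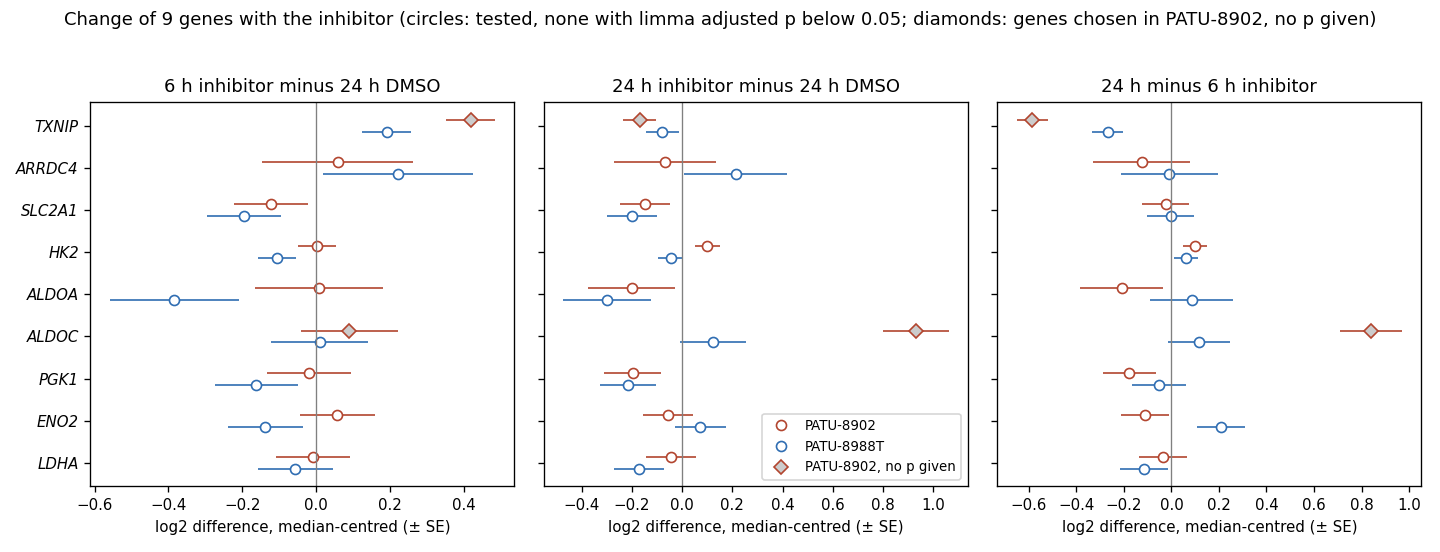
Median-centred log2 difference with its SE of the 9 tested genes in 3 comparisons, PATU-8902 in red and PATU-8988T in blue; circles are tested genes, of which none passed an adjusted p below 0.05, and diamonds are TXNIP and ALDOC in PATU-8902, where both were chosen and no p is given. The diamonds stand at 0.42 for TXNIP at 6 h against DMSO, at 0.93 for ALDOC at 24 h against DMSO, and at -0.59 and 0.84 for TXNIP and ALDOC at 24 h against 6 h.

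In PATU-8902 the FPKM of the transporter and the abundant enzymes ranged widely within groups, and none of them was called with the inhibitor. SLC2A1 in PATU-8902 read 191, 138 and 144 FPKM in DMSO, 111, 196 and 122 FPKM at 6 h and 130.5, 125 and 194 FPKM at 24 h. At 24 h against DMSO its centred log2 difference was -0.15 ± 0.10 (95% interval -0.36 to 0.06). LDHA in PATU-8902 differed by -0.04 ± 0.10 at 24 h against DMSO (95% interval -0.26 to 0.17), and PGK1 by -0.20 ± 0.11 (95% interval -0.44 to 0.04). HK2 in PATU-8902 read 14.8, 13.0 and 12.9 FPKM in DMSO, 10.7, 16.5 and 12.7 FPKM at 6 h and 14.3, 13.1 and 19.1 FPKM at 24 h. After centring the 24 h libraries of HK2 (3.69, 3.61 and 3.66) lay above those in DMSO (3.52, 3.56 and 3.58), with a difference of 0.10 ± 0.05 (95% interval -0.01 to 0.21). Of the 7 genes other than TXNIP and ALDOC, HK2 was the only 1 whose centred groups did not overlap there, against 13.1% of all genes.

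In PATU-8988T, 1 DMSO library decided how these genes looked. In DMSO replicate 1, LDHA read 679 FPKM, against 1518 and 1372 FPKM in replicates 2 and 3, and ALDOA read 186 FPKM, against 503 and 479 FPKM. At 24 h of inhibitor LDHA read 706, 780.2 and 869 FPKM and ALDOA 207, 243 and 231 FPKM, above replicate 1 of DMSO and below replicates 2 and 3. With all libraries, the as-deposited log2 difference at 24 h against DMSO was -0.52 ± 0.32 for LDHA (limma adjusted p = 0.334) and -0.65 ± 0.37 for ALDOA (adjusted p = 0.334). Without DMSO replicate 1, 7 of the 9 genes were called lower as deposited (ALDOA at -1.11, PGK1 and SLC2A1 at -0.92 each, LDHA at -0.88, HK2 at -0.65, TXNIP at -0.64 and ENO2 at -0.60), but 56.8% of all genes were then called. After centring 4 were called lower without it (ALDOA at -0.51, SLC2A1 at -0.32, PGK1 at -0.31 and LDHA at -0.28), against 40.8% of all genes. At 6 h against DMSO, 3 were called after centring without it (ALDOA at -0.59, SLC2A1 at -0.31 and TXNIP at 0.23), against 42.6% of all genes. The 2 remaining DMSO libraries are assumed to vary like the other groups.

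ENO2 in PATU-8988T read 4.97, 11.04 and 10.2 FPKM in DMSO, 6.05, 6.79 and 9.68 FPKM at 6 h and 6.10, 6.79 and 7.19 FPKM at 24 h. Its share of enolase FPKM was 1.06%, 0.893% and 0.870% in DMSO, 1.07%, 0.978% and 1.01% at 6 h and 1.19%, 1.14% and 1.20% at 24 h. The 24 h shares lay above all the others (exact permutation p = 0.1 against either group, 0.5 after adjustment over 35 tests). After centring ENO2 at 24 h against 6 h differed by 0.21 ± 0.10 (limma adjusted p = 0.855). ENO2, TXNIP, HK2 and LDHA were the 4 of 9 genes whose centred groups did not overlap there, against 21.1% of all genes.

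SLC2A1, ALDOA, PGK1 and LDHA went together across libraries. Over the 18 libraries, with the mean of each line removed, the centred levels of SLC2A1 and ALDOA had a Pearson r of 0.94, ALDOA and PGK1 of 0.94, SLC2A1 and PGK1 of 0.91, and PGK1 and LDHA of 0.86. ARRDC4 ran against that group, with an r of -0.78 with LDHA, -0.74 with SLC2A1, -0.71 with ALDOA and -0.68 with PGK1, but its PATU-8902 values lie at the floor and follow the shift of the library. TXNIP and ARRDC4 had an r of 0.21, and TXNIP and ALDOC one of -0.58. HK2 had an r of 0.06 with SLC2A1 and of -0.16 with LDHA. These values are descriptions: the points share library, scaling and the groups themselves. By the same measure all tested genes were ranked by likeness to ALDOC and to TXNIP. The PATU-8902 libraries on which both were chosen enter these rankings, which therefore favour genes with like differences there. The 5 most like ALDOC were ELOVL6 (0.91), OLMALINC (0.90), IDH1 (0.89), TDRKH (0.87) and LRP8 (0.86). ELOVL6, a fatty acid elongase, averaged 18.2 FPKM in DMSO, 20.1 FPKM at 6 h and 37.9 FPKM at 24 h in PATU-8902, and IDH1, the cytosolic isocitrate dehydrogenase, averaged 46.2, 48.3 and 80.2 FPKM in the same order. In PATU-8988T, ELOVL6 averaged 15.4, 16.3 and 12.1 FPKM and IDH1 29.2, 31.6 and 23.6 FPKM in that order. The 5 most like TXNIP were AURKAPS1 (0.77), HENMT1 (0.76), PRMT3 (0.75), SEC22C (0.75) and PILRB (0.75). PRMT3, an arginine methyltransferase, averaged 30.6, 32.0 and 30.7 FPKM in PATU-8902 and 40.0, 41.9 and 31.4 FPKM in PATU-8988T. PILRB, an immunoglobulin-like receptor, averaged 1.79, 2.63 and 1.61 FPKM in PATU-8902 and 1.44, 1.71 and 0.627 FPKM in PATU-8988T, a wider range for its level.

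Beyond the set, 10 lists of related genes with 82 tested members were examined in the same fits. None of the 82 passed in any of the 6 inhibitor comparisons or the 2 line differences on either scale (limma). After centring, 0.444%, 0.113% and 0.244% of all genes passed in PATU-8902 (24 h against DMSO, 6 h against DMSO, 24 h against 6 h). In PATU-8988T 0.0%, 0.0784% and 0.0% did, and in the line differences 0.227% at 24 h and 0.0% at 6 h. As deposited no such share exceeded 0.113%, so 0 of 82 is close to the shares of all genes. At an unadjusted p below 0.05 the centred counts in PATU-8902 were 11 at 24 h against DMSO, 3 at 6 h against DMSO and 7 at 24 h against 6 h, where 7.72%, 2.35% and 8.55% of all genes met that rule. In PATU-8988T they were 15, 29 and 6 in the same order, where 16.8%, 29.5% and 4.74% of all genes did. In the line differences they were 2 at 24 h and 11 at 6 h, where 4.80% and 12.1% of all genes did. As deposited those counts were 0, 0 and 0 in PATU-8902 (1.46%, 0.688% and 1.72% of all genes), 3, 1 and 6 in PATU-8988T (5.99%, 2.50% and 5.79%), and 2 and 0 in the line differences (2.45% and 0.863%).

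Between the lines in DMSO, 36 of the 82 were higher and 21 lower in PATU-8902 as deposited, against 41.8% and 12.4% of all genes. After centring 34 were higher and 35 lower, against 34.4% and 37.8%. Of the 82 genes 9, SLC16A3, BNIP3 and PYGL among them, averaged below 1 FPKM in 1 line, so that the filter fixed that they differ. Without them 31 of 73 were higher and 17 lower as deposited, and 29 and 31 after centring. The factors that read glucose 6-phosphate differed in opposite ways. MLXIP averaged 4.41 ± 0.183 FPKM in PATU-8902 DMSO and 7.95 ± 3.36 FPKM in PATU-8988T DMSO (SD, n = 3 each; centred log2 difference -1.14 ± 0.09, adjusted p = 1.27e-08). Its partner MLX averaged 56.5 ± 11.1 FPKM in PATU-8902 and 19.6 ± 6.95 FPKM in PATU-8988T (1.03 ± 0.10, adjusted p = 1.10e-07). MLXIPL, the third gene of that list, averaged 0.228 FPKM in PATU-8902 DMSO and 0.115 FPKM in PATU-8988T DMSO and was not tested.

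**Figure D5:**
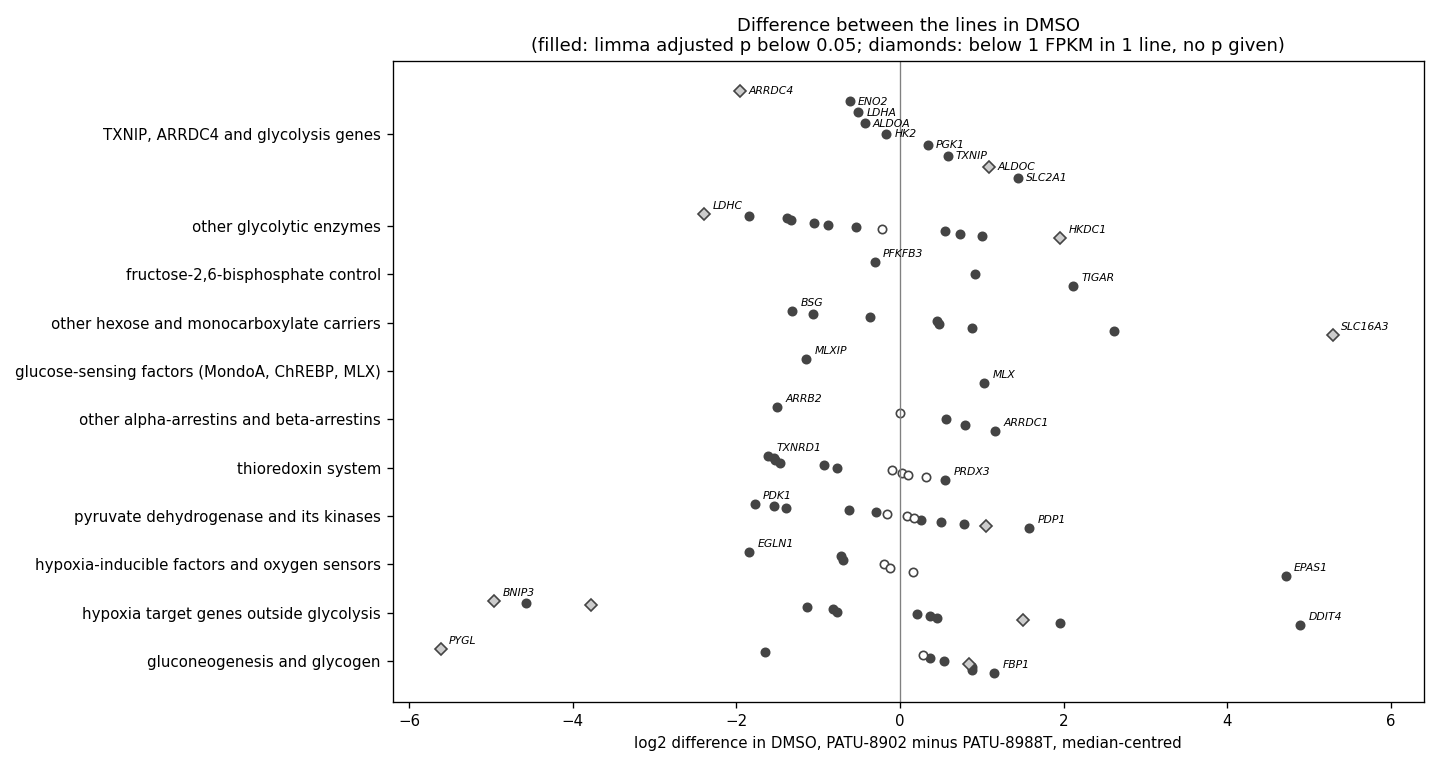
Median-centred log2 difference in DMSO between PATU-8902 and PATU-8988T of the 9 tested genes of the set and of 10 related lists; each point is a gene, filled where the adjusted p was below 0.05 and a diamond where the gene averaged below 1 FPKM in 1 line and no p is given, and the genes at the ends of each list are named. The set lies between -1.95 (ARRDC4) and 1.44 (SLC2A1), inside the range from PYGL (-5.61) to SLC16A3 (5.29).

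Of 10 other glycolytic enzymes that averaged at least 1 FPKM in each line, 3 were higher and 6 lower in PATU-8902 after centring (3 and 3 as deposited). For this and each list that follows, 34.4% of all genes were higher and 37.8% lower after centring, and 41.8% and 12.4% as deposited. Genes that passed the filter through 1 line alone are left out of the list counts, but not of those shares. GAPDH, the most abundant of these enzymes, averaged 5024 ± 1441 FPKM in PATU-8902 DMSO and 1910.04 ± 898 FPKM in PATU-8988T DMSO, with a centred log2 difference of 1.00 ± 0.19 (limma adjusted p = 2.02e-04). GPI, which follows hexokinase, was lower (-1.85 ± 0.15, adjusted p = 1.18e-08). Among carriers, 4 were higher and 3 lower of 7 without SLC16A3 (4 and 1 as deposited). SLC16A3, the lactate exporter MCT4, averaged 83.1 ± 19.5 FPKM in PATU-8902 and 0.517 ± 0.347 FPKM in PATU-8988T (5.29 ± 0.15, with no p given), and SLC2A12, a glucose transporter, 16.0 ± 1.27 FPKM and 0.961 ± 0.176 FPKM in that order. Of the fructose 2,6-bisphosphate genes, TIGAR (2.12 ± 0.13, adjusted p = 3.07e-10) and PFKFB2 were higher on both scales, and PFKFB3 stood at -0.31 ± 0.08 after centring and at 0.19 ± 0.27 as deposited.

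The arrestin list had 3 higher and 1 lower of 5 tested (4 and 1 as deposited), with ARRDC1, an alpha-arrestin, at 1.17 ± 0.15 (limma adjusted p = 3.04e-06) and ARRB2, a beta-arrestin, at -1.50 ± 0.14 (adjusted p = 4.52e-08) after centring. The thioredoxin system, which TXNIP restrains, had 1 higher and 6 lower of 11 (1 and 4 as deposited). TXNRD1, which reduces thioredoxin, averaged 166 ± 22.5 FPKM in PATU-8902 DMSO and 375 ± 132 FPKM in PATU-8988T DMSO (-1.61 ± 0.07, adjusted p = 9.54e-12). PRDX1, a thioredoxin-dependent peroxidase, averaged 389 ± 94.8 FPKM in PATU-8902 and 837 ± 330 FPKM in PATU-8988T. Pyruvate dehydrogenase genes had 4 higher and 5 lower of 12 (5 and 3 as deposited), with the inhibitory kinase PDK1 lower (-1.77 ± 0.13, adjusted p = 3.97e-09) and the activating phosphatase PDP1 higher (1.58 ± 0.07, adjusted p = 3.48e-12).

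The hypoxia lists were split too. Of 7 tested factors and sensors, 1 was higher and 3 lower after centring (1 and 1 as deposited): EPAS1, which encodes HIF-2 alpha, averaged 82.6 ± 9.03 FPKM in PATU-8902 DMSO and 1.26 ± 0.355 FPKM in PATU-8988T DMSO (4.71 ± 0.11, limma adjusted p = 2.32e-15), while HIF1A averaged 65.2 ± 4.13 FPKM and 76.8 ± 23.5 FPKM in that order. Of 9 hypoxia targets outside glycolysis that averaged at least 1 FPKM in each line, 5 were higher and 4 lower (5 and 2 as deposited). DDIT4, a curb on mTORC1, averaged 131 ± 38.0 FPKM in PATU-8902 and 2.21 ± 1.08 FPKM in PATU-8988T. ADM, the adrenomedullin gene, averaged 6.71 ± 0.960 FPKM and 138 ± 58.9 FPKM in that order, and BNIP3, a mitophagy receptor, 0.191 ± 0.066 FPKM and 26.0 ± 7.51 FPKM. Of 7 gluconeogenesis and glycogen genes that averaged at least 1 FPKM in each line, 5 were higher and 1 lower on both scales. PYGL, the liver-type glycogen phosphorylase, averaged 0.128 ± 0.004 FPKM in PATU-8902, near the floor, and 39.9 ± 13.95 FPKM in PATU-8988T, while its relative PYGB averaged 103 ± 21.9 FPKM and 40.8 ± 16.4 FPKM in the same order.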

How the data were processed

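Polyadenylated RNA was sequenced from 18 libraries, 3 in each of 6 groups. The authors deposited 1 table of FPKM values, levelled on ERCC spike-in RNA that was added to RNA normalised by cell number, per the labels' protocols and the series design. The submitters' processing notes list HISAT, Cufflinks and Cuffnorm beside the hg19 build; versions, and use of strand in counting, are not given in the sources used here. It held 26249 genes and 92 spike-in controls, and 0 columns were left unmapped. It has no counts, so depth is unknown and intervals for counting error are left out; the precision comes from the spread between libraries.

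The 11477 genes that averaged 1 FPKM or more entered 1 model of the 6 group means in limma 3.58.1 (R 4.3.3), fitted to log2(FPKM + 1) with its trend option and 12 residual degrees of freedom. Differences of low genes are understated on this scale. A gene that averaged below 1 FPKM in 1 line passed the filter through the other and was given no p between the lines. It was fitted on the values as deposited and after median-centring, with 9 contrasts and Benjamini-Hochberg adjustment over all tested genes within a contrast (2-sided, threshold 0.05). Errors are SE for log2 differences and SD for FPKM and shares. Isozyme shares were compared by exact permutation (2-sided; the smallest p for 3 against 3 is 0.1). The code was tested on simulated data. Pearson r values between genes used centred levels less the mean of each line.

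The set, the lists and the tests were chosen with earlier results of these data known. All 10 genes of the set are named. Of each list, the most abundant gene and at most the 3 genes with the largest centred change among those past the threshold could be named. HK1 and LDHB enter as parts of isozyme families. MLXIPL, SLC2A14, HKDC1 and the epithelial markers were named after their values were seen. The ALDOC share was planned over a wider family and was computed over ALDOA and ALDOC, since 1 gene is not reported here. Alternatives were the pseudocount, the filter, the scaling, the replicate block, fits on the compared groups only, and leaving out each library. Same-numbered libraries of a line did not deviate together (correlations over 0.1 in 0 of 9 pairs in PATU-8902 and 3 of 9 in PATU-8988T), so the replicate numbers were not taken to pair libraries. Promoter windows came from RefSeq (GRCh38.p14), a build other than that of the FPKM table, and were matched by gene symbol alone.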

Additional observations from a re-analysis of the deposited data

How the results depend on the processing

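Of the counts of genes of the set past the threshold, those as deposited became 1 at 24 h against DMSO, 1 at 6 h against DMSO and 2 at 24 h against 6 h in PATU-8902, and 9 between the lines in DMSO, after median-centring; the last was 3 with a filter of 5 FPKM, which leaves out ALDOC and ARRDC4. With the compared groups only it was 4 as deposited, without PGK1, and 6 after centring, without PGK1, HK2 and ALDOA, and with no filter it was 8 after centring, without HK2. These counts include ALDOC and ARRDC4; the PATU-8902 counts and the line difference hold TXNIP and ALDOC only, the genes chosen there, and nothing is read from them. After centring, the PATU-8902 count at 24 h against 6 h was 1 with a pseudocount of 0.1, with the filter of 5 FPKM and with the compared groups only. The count at 24 h against DMSO was 0 with the filter of 5 FPKM, which leaves out ALDOC, and the count at 6 h against DMSO was 0 with the compared groups only. With cyclic loess the line difference at 24 h had 1 call. With the replicate number as a block, the PATU-8902 count at 24 h against 6 h was 1, the count between the lines was 8 after centring and 5 as deposited, and no other count of the set changed. Other than for the filter, the cause was not tested.

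Leaving out 1 library at a time gave 0 to 7 calls at 24 h against DMSO in PATU-8988T as deposited and 0 to 4 after centring, 0 to 3 at 6 h against DMSO there, 0 to 1 in the line difference at 24 h, 0 to 1 at 6 h against DMSO in PATU-8902 and 1 to 2 at 24 h against 6 h there; all the values above 0 in PATU-8988T and in the line difference came without PATU-8988T DMSO replicate 1. The PATU-8902 count at 6 h was 0 without DMSO replicate 2 or 3 or without 6 h replicate 1 or 3. The count at 24 h against 6 h was 1 without 6 h replicate 3 or 24 h replicate 3. These PATU-8902 counts and the line difference hold only TXNIP and ALDOC, which were chosen on PATU-8902 libraries, so they are no test of either gene. Between the lines in DMSO, HK2 and ALDOA turned to -0.17 and -0.43 after centring, and as deposited ALDOA ranged from -0.40 to 0.32, ENO2 from -0.43 to 0.0719 and LDHA from -0.37 to 0.21 without 1 library.

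With 1 FPKM added to each isozyme, differences in share, in percentage points, were 0.140, 0.133 and 0.00721 for ALDOC in PATU-8988T (24 h against DMSO, 6 h against DMSO, 24 h against 6 h). For LDHA they were 0.00904 in PATU-8902 at 24 h against 6 h, and -0.0348 and -0.0313 in PATU-8988T at 24 h against DMSO and against 6 h. For SLC2A3 they were 0.203 in PATU-8902 at 6 h against DMSO, 0.986, 0.298 and 0.688 in PATU-8988T in the order above, and -2.11 between the lines; low genes weigh more in such shares. The floor and 3 libraries a group limit what can be said of SLC2A3, of ARRDC4 in PATU-8902 and of ALDOC in PATU-8988T.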
